A study of Rattus norvegicus with 6 samples.

Results

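Orphan and adhesion G protein-coupled receptors were examined in the dorsal root ganglion, where the cell bodies of sensory neurons lie, after nerve injury in SD rats. Genes were taken by symbol: Gpr followed by a digit, Adgr (without Adgre1) or Lgr followed by a digit. The rule found 97 genes among the 18696 with group averages, of which 70 were Gpr, 24 Adgr and 3 Lgr genes. The injured group of 3 libraries came from rats with a spared nerve injury (SNI): of the branches of the sciatic nerve, the tibial and common peroneal were tied and cut, while the sural was left whole. The sham group, also 3 libraries, had the nerve exposed and the skin closed. Whole ganglia were used, so that neurons, glia, vessels and immune cells were read together, and the sources used here do not give age, sex, time after surgery, side or spinal level.

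Levels are in TPM, the share of a transcript among all transcripts of a library, which corrects for gene length. The authors' averages of each group were given for all 97 genes, and TPM of each library for 8 of them. An average has no error, and the depth of each library is unknown. Nothing in the labels ties each library to its own animal, so p-values measure only the spread between these libraries, which may be technical. The tissue label was checked on markers: 8 sensory neuron genes were abundant in both groups, with a summed average of 20967 (sham) and 20460 TPM (SNI), and all 6 genes of injured neurons were higher in SNI, at a sum of 367 (sham) and 3152 TPM (SNI). In bulk tissue, fewer cells of a type and less RNA per cell cannot be told apart.

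G protein-coupled receptors pass an outside signal to G proteins inside the cell through a bundle of membrane helices. Adhesion receptors carry in addition a long outer part that binds matrix or neighbouring cells and is cut near the membrane, which exposes a tethered piece that can activate the receptor. Orphan receptors are those with no accepted ligand, though many Gpr genes have since been given a lipid, a proton or a metabolite as ligand. The LGR receptors bind R-spondins and strengthen Wnt signalling.

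In the authors' lists of changed genes, 11 of the 97 receptors were listed as higher in SNI and 0 as lower, where 3.63% of all genes with averages were in the higher list and 0.695% in the lower list. Among them were Gpr101, Gpr84, Gpr65, Gpr18, Gpr34, Adgrd1, Gpr171, Adgrg5, Adgre4 and Adgrg3. Levels were low, and 7 of the 11 averaged under 1 TPM in sham. At a minimum of 10 reads in the larger average the count was still 11, of 81 receptors, with 4.19% of all genes. The sources used here do not name the test behind the authors' lists, and no TPM per library was given for these 11 genes.

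The summed average of the 97 receptors was 1354 TPM in sham, and 1340 TPM after SNI, and the receptors' median log2 ratio of SNI to sham averages, taken after adding 1 TPM to each, was 0.03, beside 0.02 over all genes. Averages were higher in SNI for 54 receptors, lower for 41 and equal for 2, with 53.1% of all genes higher. With at least 10 reads in the larger average, 3 receptors (Gpr65, Adgrd1 and Gpr34) had a log2 ratio of at least 1 in favour of SNI and 0 in favour of sham, where 2.69% and 0.479% of all genes did. Adding 1 TPM compresses low genes: with 0.1 TPM added, 11 receptors reached that size in favour of SNI, where 4.59% of all genes did.

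**Figure D1:**
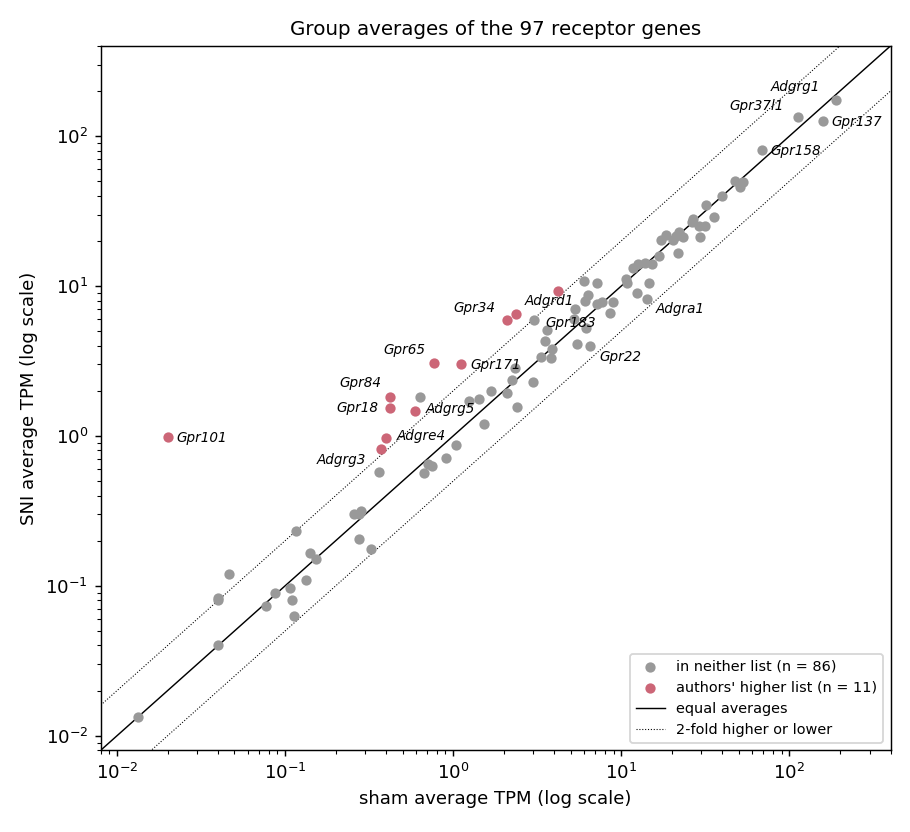
Average TPM of each of the 97 receptor genes in sham (x axis, log scale) and SNI (y axis, log scale), 1 point a gene. The 11 genes of the authors' higher list lie above the upper dotted line of 2-fold difference, with Gpr101 at 0.02 and 0.987 TPM farthest from it, while the abundant genes such as Adgrg1 lie near the line of equal averages.

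Receptors of leukocytes were among those in the higher list. A list of 11 leukocyte receptors (Gpr18, Gpr34, Gpr65, Gpr82, Gpr84, Gpr132, Gpr141, Gpr160, Gpr171, Gpr174 and Gpr183) had a higher average in SNI for all 11, and 5 of them were in the authors' higher list. The list may not be complete: Gpr15, Gpr25 and Gpr35 were left off it and averaged lower in SNI. They stood at 0.133, 0.0767 and 23.4 TPM in sham against 0.110, 0.0733 and 21.4 TPM in SNI, Gpr15 and Gpr25 on few reads. The adhesion receptors Adgre4, Adgre5, Adgrg3 and Adgrg5, known from myeloid cells and lymphocytes, were added to the 11 after their values were seen. With them, 15 of 15 averages were higher and 8 were in the higher list, beside 53.1% and 3.63% of all genes. Of the 15 genes, 3 had fewer than 10 reads in both averages, among them Gpr141 at 1.67 (sham) and 2 reads (SNI). The summed average of these 15 genes was 20.7 (sham) and 42.9 TPM (SNI). Without these 15 genes, 3 of the other 82 receptors were in the higher list, Gpr101 and Adgrd1 among them, beside 3.63% of all genes. Of those with at least 10 reads in the larger average, 1 (Adgrd1) had a log2 ratio of at least 1, beside 2.69% of all genes. The median log2 ratio of the 82 was 0.00. What remained was partly fixed by the choice of the 4 added receptors, of which Adgre4, Adgrg3 and Adgrg5 were in the higher list. With only the 11 left out, these would stay among the other receptors.

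Gpr34 (NCBI Gene ID 554353), a receptor for lysophosphatidylserine on macrophages and microglia, averaged 2.10 TPM in sham against 5.98 TPM in SNI. Gpr84 (Gene ID 688730), a receptor for medium-chain fatty acids that activated myeloid cells make, averaged 0.423 and 1.81 TPM. Gpr65 (Gene ID 299242), a proton sensor of leukocytes, averaged 0.770 and 3.05 TPM, the largest log2 ratio among the receptors at 1.20. The low levels rest on few reads. The authors' average read count of Gpr84 was 5.67 in sham and 25.7 in SNI, a ratio of 4.53 with a 95% exact (Clopper-Pearson) interval of 2.65 to 8.17. Intervals here take 3 times the average as the read sum of a group and cover counting error only, not the spread between libraries. For Gpr65 the ratio of reads was 3.68 (2.45 to 5.66) and for Gpr34 2.88 (2.31 to 3.61), so the 3 intervals overlapped.

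Gpr18, a lymphocyte receptor with a proposed lipid ligand, averaged 0.423 TPM in sham, and 1.53 TPM after SNI. Gpr171, a receptor of lymphocytes for which a neuropeptide ligand has been proposed, averaged 1.12 and 3.04 TPM. Adgrg5 and Adgrg3, adhesion receptors of leukocytes, averaged 0.593 and 0.373 TPM in sham against 1.47 and 0.813 TPM in SNI. Adgre4, a relative of the macrophage marker Adgre1, averaged 0.397 and 0.967 TPM. The ratios of reads of these 5 receptors lay between 2.23 (Adgrg3, interval 1.57 to 3.22) and 3.67 (Gpr18, interval 2.04 to 6.99).

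Just outside the higher list stood Gpr183 and Adgre5. Gpr183, the oxysterol receptor that guides lymphocytes and dendritic cells, averaged 3.04 (sham) and 5.92 TPM (SNI), a ratio of reads of 1.96 (1.58 to 2.45). Adgre5, the leukocyte surface protein CD97, averaged 5.97 and 10.9 TPM, a ratio of reads of 1.87 (1.67 to 2.09). The lowest ratio of average TPM in the whole higher list was 1.80. Gpr31, a receptor for a lipoxygenase product, had a ratio of reads of 2.94 (1.64 to 5.55) on 5.33 and 15.7 reads and was in neither list. Gpr82 (0.0867 and 0.0900 TPM) and Gpr141 (0.257 and 0.300 TPM) stood at nearly the same low averages in both groups.

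Most markers of immune cells also had a higher average in SNI. This held for all 8 macrophage markers, with a summed average of 107 TPM in sham against 239 TPM in SNI. In the authors' higher list were 5 of them (Aif1, Cd68, Cx3cr1, Itgam and Adgre1). Of the rest, Csf1r averaged 26.7 and 50.7 TPM. Cd163 (6.03 and 6.20 TPM) and Mrc1 (7.57 and 8.69 TPM) differed little and were not called (limma adjusted p = 0.73 and 0.073). Of 6 lymphocyte markers, 4 were higher, 2 of them (Cd3e and Gzmb) in the higher list, and the sum was 4.10 and 12.4 TPM, with the B cell gene Ms4a1 at 0.377 and 0.133 TPM. All 3 erythrocyte markers with averages were higher too, at a sum of 189 and 609 TPM. The part of these cells in the receptor averages was not tested.

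**Figure D2:**
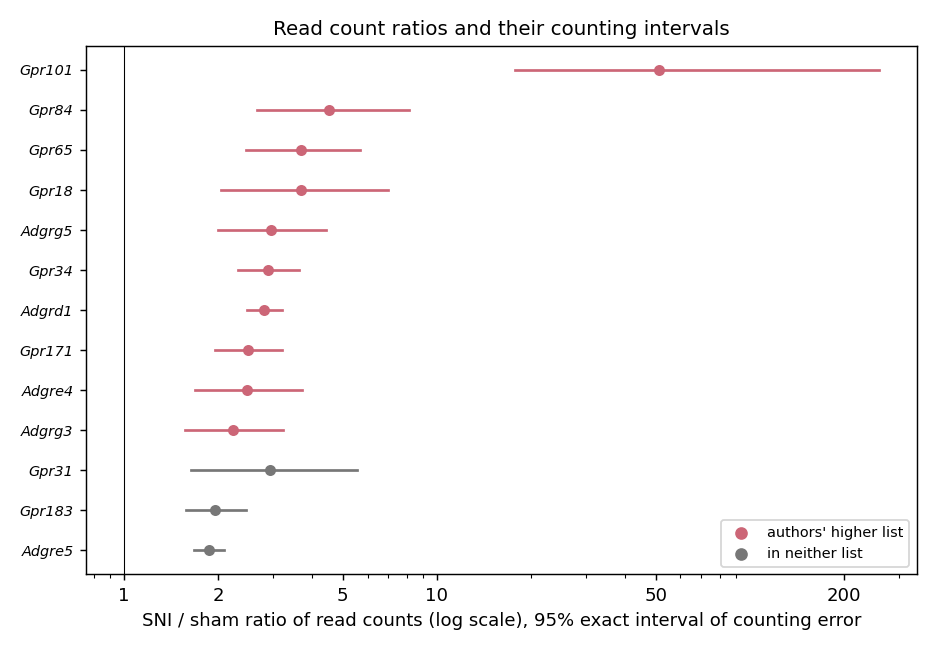
Ratio of the authors' average read counts, SNI over sham (log scale), for 10 receptors of the higher list and 3 receptors outside it; lines are 95% exact intervals of counting error. The ratios run from Adgre5 at 1.87 to Gpr101 at 51.4. The interval of Gpr101, 17.7 to 258, is the widest and rests on a sham average of 1.03 reads. All 13 intervals lie above 1, which the choice of genes largely fixed: 10 by the authors' list and 3 after their values were seen.

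Gpr101 (Gene ID 317608) differed most in relative terms. This orphan receptor, which raises cAMP and is known from the hypothalamus and pituitary, averaged 0.02 TPM in sham, and 0.987 TPM after SNI. In reads this was an average of 1.03 in sham and 52.8 in SNI, a ratio of 51.4 with an interval of 17.7 to 258. Whether 1 library carried the SNI reads cannot be seen from the average. All 6 markers of injured neurons were in the authors' higher list, among them Atf3 at 8.13 and 288 TPM. So were 5 of 8 macrophage and all 3 erythrocyte markers, beside 3.63% of all genes. The part of any of these cells in the average of Gpr101 was not tested. The sources used here do not tie Gpr101 to a cell type of the ganglion.

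Adgrd1 (Gene ID 689257), an adhesion receptor that raises cAMP, averaged 2.36 (sham) and 6.54 TPM (SNI), a ratio of reads of 2.81 (2.47 to 3.19). It rested on 109 and 305 reads, more than the leukocyte receptors of the higher list, and had the third highest log2 ratio among the receptors, 1.17.

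Promoter sequence is shown for 4 receptors of the higher list, the myeloid receptors Gpr65, Gpr34 and Gpr84 and the receptor with the largest ratio of reads, Gpr101. RefSeq (build GRCr8) gave a promoter for 72 of the 97 receptors and for 8 of the 11. The 250 bases before the annotated start were searched on both strands for short motifs. They were GAGGAA (purine box bound by ETS factors of myeloid cells), TGACG (a half-site of the cAMP response element) and TGANTCA (an AP-1 site). Matches are in capitals as they read on the gene's strand. The windows are chr6:123254504-123254753 (plus strand) for Gpr65, chrX:11785837-11786086 (minus strand) for Gpr34, chr7:136324574-136324823 (minus strand) for Gpr84 and chrX:140579735-140579984 (minus strand) for Gpr101.
Gpr65: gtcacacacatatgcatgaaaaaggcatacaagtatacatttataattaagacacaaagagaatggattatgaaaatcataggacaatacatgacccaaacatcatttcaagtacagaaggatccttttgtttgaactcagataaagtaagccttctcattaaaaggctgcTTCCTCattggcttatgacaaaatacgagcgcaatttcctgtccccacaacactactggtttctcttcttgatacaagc
Gpr34: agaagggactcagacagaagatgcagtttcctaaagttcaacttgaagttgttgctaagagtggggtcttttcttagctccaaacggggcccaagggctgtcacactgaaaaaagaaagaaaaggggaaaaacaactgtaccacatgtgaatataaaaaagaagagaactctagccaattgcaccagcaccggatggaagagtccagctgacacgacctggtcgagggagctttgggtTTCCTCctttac
Gpr84: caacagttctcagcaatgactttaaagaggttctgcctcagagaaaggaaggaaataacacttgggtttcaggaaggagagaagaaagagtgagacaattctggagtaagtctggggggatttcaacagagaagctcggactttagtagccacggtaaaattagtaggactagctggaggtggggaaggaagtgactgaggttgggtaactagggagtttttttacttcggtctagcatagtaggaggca
Gpr101: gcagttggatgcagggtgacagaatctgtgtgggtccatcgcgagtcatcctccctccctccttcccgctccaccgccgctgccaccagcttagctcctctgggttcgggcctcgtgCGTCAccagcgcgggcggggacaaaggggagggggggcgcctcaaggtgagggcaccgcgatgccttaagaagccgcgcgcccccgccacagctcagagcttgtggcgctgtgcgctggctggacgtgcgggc
GAGGAA was present in the windows of Gpr65 and Gpr34, on the opposite strand (79 and 12 bases before the start to the first base of the match), and not in that of Gpr84. It was found in 4 of the 8 windows of the higher list (also in Adgre4 and Adgrg3), in 23.6% of receptor windows and in 23.2% of the 27457 promoters of the table. The window of Gpr101 held 1 TGACG, the only one in the 8, where 19% of all promoters held one. TGANTCA was in 0 of the 8 windows and in 6.36% of all promoters. The motifs were chosen with these sequences in view, and a match is a description of the letters alone.

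Among adhesion receptors of the neuronal subfamilies, averages differed both ways. The group of latrophilins, brain angiogenesis inhibitor receptors and Adgra receptors had 10 genes, 5 with a higher and 5 with a lower average and none in the authors' lists. Adgra1, a brain-enriched member, averaged 14.2 TPM in sham against 8.25 TPM in SNI, the lowest log2 ratio of all 97 receptors at −0.72 (ratio of reads 0.587, interval 0.542 to 0.637). Adgrb2 averaged 14.6 and 10.5 TPM and Adgrb1, which binds phosphatidylserine on dying cells, 29.1 and 24.98 TPM, while Adgrb3, the receptor of C1q-like proteins, stood at 13.9 and 14.2 TPM. Adgrl3 averaged 12.6 and 14.1 TPM. Of the vascular members, Adgrl4 averaged 5.33 and 7.03 TPM and Adgra2, which serves Wnt signals in vessels, 20.3 and 20.3 TPM. The 6 endothelial markers had a sum of 108 and 104 TPM. Of these, 3 averaged higher in SNI (Tek at 6.14 and 8.64 TPM) and 3 lower (Cldn5 at 57.6 and 49.9 TPM).

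Among the other adhesion receptors, Adgrg6, which Schwann cells need to start myelination, averaged 18.5 TPM in sham, and 21.9 TPM after SNI. Gpr37, a receptor of myelinating glia, averaged 12.4 and 8.95 TPM, and Gpr37l1, its relative in satellite glia and astrocytes, 113 and 135 TPM. Of 6 markers of myelinating Schwann cells, 5 had lower averages in SNI, with a sum of 10569 (sham) and 5752 TPM (SNI). All 6 satellite glia markers were higher, at a sum of 734 and 807 TPM. The part of these cells in the averages of Gpr37, Gpr37l1 and Adgrg6 was not tested.

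Of the 17 orphan receptors listed as neuronal, 9 averages were higher and 8 lower. In the authors' higher list were 2 of the 17, Gpr101 among them, and 0 in the lower list, beside 3.63% and 0.695% of all genes. Gpr158, a glycine receptor that binds an RGS protein, was the most abundant at 68.4 and 81.1 TPM. Gpr149 averaged 21.7 and 16.7 TPM and Gpr22 6.55 and 3.97 TPM, the latter with a log2 ratio of −0.60 (ratio of reads 0.614, interval 0.548 to 0.687). Gpr19 averaged 7.16 and 10.5 TPM. Of the 8 sensory neuron markers, 6 had lower averages in SNI, from Nefh at a log2 ratio of −0.64 to Uchl1 at −0.06, and 2 higher (Tubb3 at 0.37 and Prph at 0.30), with a list median of −0.37. The part of these cells in the averages of Adgra1, Gpr22 and Gpr149 was not tested. Gpr151, an orphan receptor of sensory and habenular neurons, stood at 1.25 and 1.72 TPM, with a ratio of reads of 1.38 whose interval of 0.936 to 2.06 included 1. At a 1.5-fold size, 12 receptors counted as higher and 2 (Adgra1 and Gpr22) as lower, where 6.79% and 2.52% of all genes did.

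Gpr132, a lipid and proton receptor of leukocytes, averaged 1.42 and 1.76 TPM, with an interval of the ratio of reads of 0.949 to 1.61 that included 1. Gpr3, a receptor that raises cAMP without a known ligand, averaged 2.34 and 2.86 TPM, and Gpr6 and Gpr12 lay under 1 TPM in both groups. Lgr4 and Lgr5 averaged 31.95 and 26.3 TPM in sham against 34.96 and 26.9 TPM in SNI, and Lgr6 2.99 and 2.31 TPM. Gpr161, a brake on Hedgehog signalling in the primary cilium, averaged 26.8 and 28.05 TPM.

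The 12 most abundant receptors held 62.5% of the summed TPM in sham, and 4 of them (Gpr137, Gpr89b, Gpr107 and Gpr108) carry the Gpr name but are known from membranes inside the cell. In order of the mean of both averages they were Adgrg1, Gpr137, Gpr37l1, Gpr158, Gpr89b, Gpr108, Adgrl1, Gpr107, Lgr4, Gpr180, Adgrg2 and Gpr161. Gpr137, a protein of lysosomal membranes, averaged 158 and 127 TPM, a ratio of reads of 0.811 (0.783 to 0.840). Gpr89b, a Golgi ion channel, and the Golgi proteins Gpr107 and Gpr108 averaged 53.1, 39.8 and 47.8 TPM in sham against 49.4, 39.9 and 49.9 TPM in SNI. Gpr180 averaged 35.5 and 28.7 TPM. At the other end, 27 receptors averaged under 1 TPM in both groups and 16 had fewer than 10 reads in both averages. RefSeq now names 3 of the 97 otherwise: Gpr81 as Hcar1, the lactate receptor, Gpr1 as Cmklr2, and Gpr33 as the pseudogene Gpr33-ps1.

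**Figure D3:**
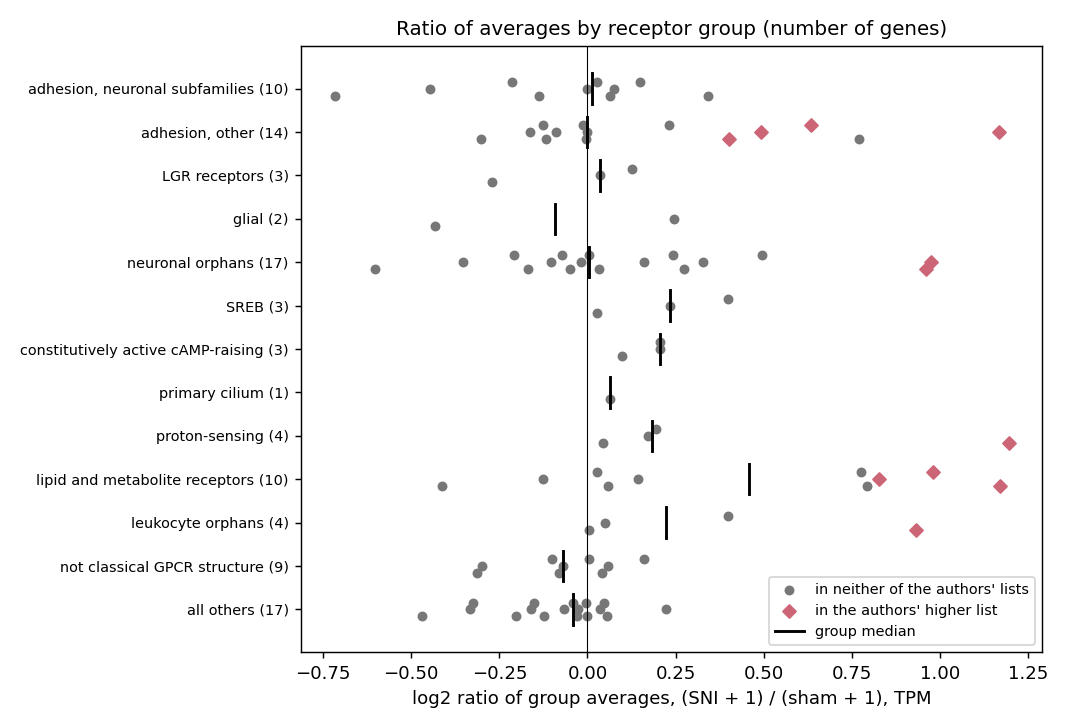
Log2 ratio of group averages (x axis, 1 TPM added to each) for each receptor, in rows by group with the number of genes; each gene is in 1 row, black bars are row medians and diamonds are genes of the authors' higher list. The row of lipid and metabolite receptors has the highest median, 0.46, and holds Gpr18, Gpr34, Gpr84, Gpr174 and Gpr183 of the leukocyte list, whose 11 genes together have a median of 0.78 while the 4 left in the leukocyte row have 0.22; the single genes farthest to the right are Gpr65, Gpr34 and Adgrd1.

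TPM of each library was given for 8 receptors, none of them in the authors' lists. Of these 8, limma called Gpr139 higher and Adgrg2 lower in SNI (adjusted p under 0.05, Benjamini-Hochberg), where 32% and 29.2% of the 1596 genes tested were called in each direction. In either direction 2 of 8 receptors were called, beside 61.2% of all tested genes in a table that the authors had selected. With median centring, or without sham replicate 2, 5 of the 8 were called. Quantile normalization moved the higher share of all calls from 52.3% to 39.8%.

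Adgrg2 (Gene ID 266735), an adhesion receptor best known from the epididymis, stood at 34.4, 30.6 and 29.3 TPM in the sham libraries against 24.98, 25.3 and 25.7 TPM in SNI. All 3 SNI libraries lay below all 3 sham libraries, and the spread was wider in sham. The means were 31.4 ± 2.61 and 25.3 ± 0.360 TPM (SD, n = 3 each), which on the log2(TPM + 1) scale is a log2 fold change of −0.30 (limma SE 0.07, adjusted p = 0.0036). The call was kept under all 13 alternatives.

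Gpr139 (Gene ID 293545), a receptor of aromatic amino acids known from the habenula, stood at 5.57, 5.72 and 6.96 TPM in the sham libraries against 8.0, 8.05 and 7.64 TPM in SNI. The groups did not overlap, with sham replicate 3 nearest to the SNI libraries. The means were 6.08 ± 0.763 and 7.90 ± 0.224 TPM (n = 3 each), a log2 fold change of 0.33 (limma SE 0.09 and adjusted p = 0.011). After quantile normalization the log2 fold change was 0.10 (limma adjusted p = 0.34), so the call was lost there, and over all alternatives the adjusted p ranged from 0.0037 to 0.34.

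Adgrg1 (Gene ID 260326), which binds collagen III and regulates myelin-forming glia, was the most abundant receptor at 189.9, 173 and 204 TPM in the sham libraries against 174, 170.4 and 178 TPM in SNI. Sham replicate 2 lay within the SNI libraries and the other sham libraries above them. The log2 fold change was −0.12 with a 95% interval of −0.25 to 0.02 (limma adjusted p = 0.13). Adgrl1, latrophilin 1, a synaptic receptor of teneurins, stood at 53.3, 45.3 and 53.3 TPM in the sham libraries against 44.8, 45.1 and 48.1 TPM in SNI, again with sham replicate 2 among the SNI values. Its log2 fold change was −0.13 with an interval of −0.29 to 0.03 (limma adjusted p = 0.13). Gpr35, a receptor for which kynurenic acid is a proposed ligand, stood at 24.7, 22.1 and 23.5 TPM in the sham libraries against 20.8, 21.4 and 22 TPM in SNI. The groups of Gpr35 did not overlap, by a margin of 0.05 TPM, and the log2 fold change of −0.12 had an interval of −0.26 to 0.01 (limma adjusted p = 0.10).

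The calls of these 3 receptors turned on sham replicate 2 and on the scaling. Sham replicate 2 was the lowest sham library in 6 of the 8 receptors and in 46.3% of the 1637 genes of the table. Without it, limma called Adgrg1, Adgrl1 and Gpr35 lower in SNI, with log2 fold changes of −0.18, −0.21 and −0.17 and adjusted p of 0.013, 0.0082 and 0.033, so that 4 receptors in place of 1 were lower. With all 6 libraries, median centring called the same 3 lower (limma adjusted p = 0.033, 0.022 and 0.0085), and quantile normalization called Adgrl1 and Gpr35 (limma adjusted p = 0.024 and 0.0013). In all, groups did not overlap in 3 of the 8 receptors, where 66.7% of tested genes had groups apart.

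Adgrl2, a further latrophilin, stood at 11.2, 9.60 and 11.3 TPM in the sham libraries against 11.2, 11.3 and 11.2 TPM in SNI. Its log2 fold change was 0.07 with an interval of −0.11 to 0.24 (limma adjusted p = 0.47). Gpr176, an orphan receptor of the circadian clock, stood at 11.3, 9.53 and 11.4 TPM in the sham libraries against 10.1, 11.1 and 10.5 TPM in SNI, a log2 fold change of −0.02 with an interval of −0.21 to 0.17 (limma adjusted p = 0.83). After quantile normalization Gpr176 was called lower (log2 fold change −0.19, limma adjusted p = 0.026). In both genes the groups overlapped and sham replicate 2 was the lowest of the 6 libraries. Gpr4, a proton sensor of vessels, stood at 4.99, 4.84 and 5.93 TPM in the sham libraries against 6.41, 5.55 and 6.17 TPM in SNI. Its groups overlapped in sham replicate 3 and SNI replicate 2, and the log2 fold change was 0.17 with an interval of −0.05 to 0.39 (limma adjusted p = 0.15).

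**Figure D4:**
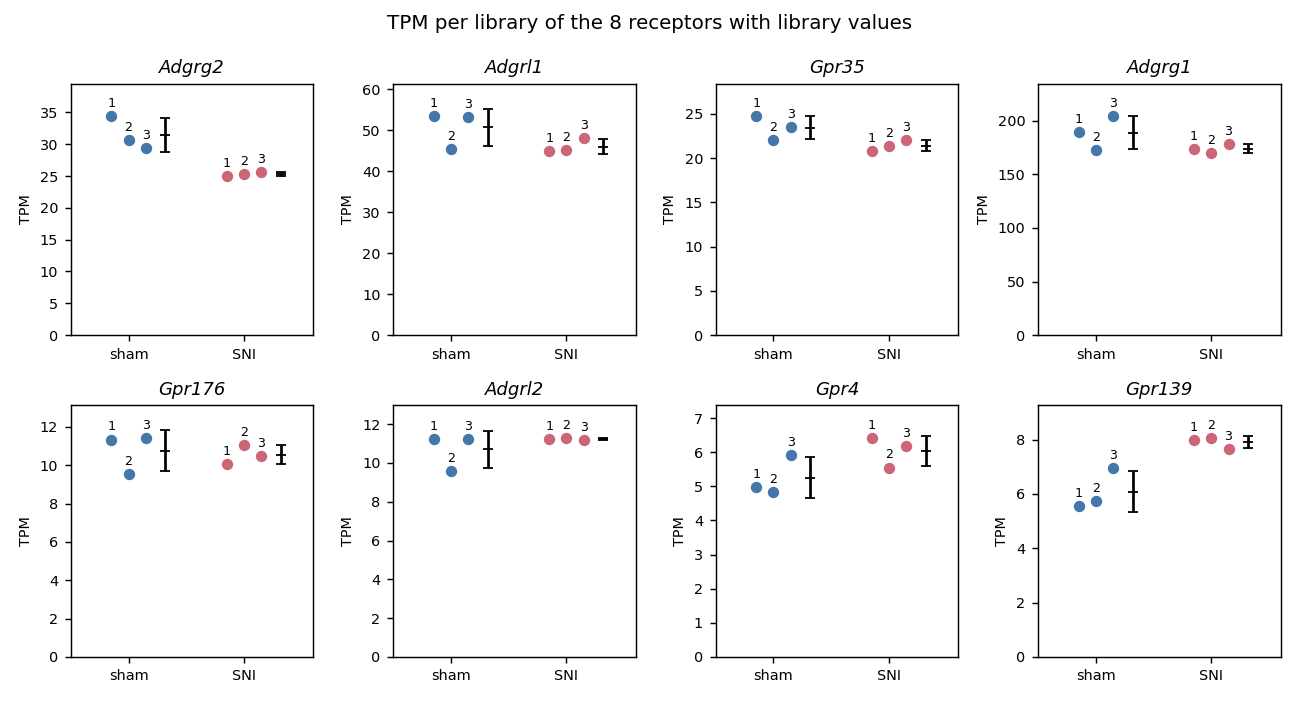
TPM per library (y axis from 0) of the 8 receptors with library values in sham (blue) and SNI (red); numbers are replicate numbers and black bars mean ± SD of 3 libraries. Groups are apart in Adgrg2, Gpr139 and narrowly in Gpr35, and sham replicate 2 is the lowest sham point in 6 panels.

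Ligands and partners of these receptors were read from a list of 39 genes. Averages were higher in SNI for 21 and lower for 18, and the authors listed 3 as higher and 0 as lower; over all genes 53.1% of averages were higher, and 3.63% and 0.695% of genes were in the lists. Flrt3, a membrane ligand of latrophilins, averaged 10.6 TPM in sham against 74.7 TPM in SNI, a log2 ratio of 2.71, while its receptors Adgrl1 to Adgrl3 had log2 ratios between −0.14 and 0.15. Flrt1 and Flrt2 averaged 3.13 and 5.11 TPM in sham against 2.08 and 5.88 TPM in SNI. Rspo3, a ligand of LGR receptors, averaged 1.19 and 4.02 TPM, and Rspo2 12.9 and 20.8 TPM. C1ql1, a ligand of Adgrb3, averaged 1.51 and 4.43 TPM. The enzymes of the Gpr183 ligand, Ch25h and Cyp7b1, averaged 3.27 and 1.26 TPM in sham against 6.39 and 2.22 TPM in SNI, and Psap, a proposed ligand precursor for Gpr37 and Gpr37l1, 1685 and 1641 TPM.

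Of the 4 partner genes with TPM per library, limma called Tenm4 higher and Col3a1 lower, and Nrxn3 and C1ql3 were not called, beside 61.2% of all tested genes called. Nrxn3, a neurexin, and C1ql3, a C1q-like protein, were called lower after quantile normalization (log2 fold change −0.26 and −0.35, limma adjusted p = 0.0072 and 0.014) and without sham replicate 2 (−0.17 and −0.32, limma adjusted p = 0.040 and 0.015). Tenm4, a teneurin bound by latrophilins, stood at 4.09, 3.28 and 4.42 TPM in the sham libraries against 5.20, 5.58 and 5.49 TPM in SNI, with groups apart (log2 fold change 0.39, SE 0.10, limma adjusted p = 0.011). This call was lost after quantile normalization (log2 fold change 0.05, limma adjusted p = 0.67). Col3a1, the collagen bound by Adgrg1, stood at 151, 151 and 154 TPM in the sham libraries against 138, 137 and 142 TPM in SNI (log2 fold change −0.13, limma adjusted p = 0.026). Its call was lost without sham replicate 3 or SNI replicate 1, 2 or 3 (limma adjusted p = 0.080, 0.098, 0.10 and 0.051).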

How the data were processed

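RNA of dorsal root ganglia was sequenced in 3 SNI and 3 sham libraries. TPM values of each library were deposited, per the file headers, for 1637 genes, with average TPM and average read counts (taken here as estimated counts) of each group for 18696 genes, beside lists of 699 higher and 136 lower genes, of which 678 and 130 had averages. The aligner, counter, build, annotation and any scaling of read counts were not given in the sources used here, and columns named Control were taken as sham. The deposited average read counts summed to 18.6 M in each group. The labels name more than 1 extraction and library kit.

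TPM were transformed as log2(TPM + 1), those with means from 1 TPM kept, and groups compared with limma 3.58.1 (R 4.3.3) with trend over the whole per-library table and Benjamini-Hochberg adjustment; the fit was tested on simulated data. With 3 libraries a group, an exact permutation test reaches no p below 0.1 (two-sided), and none was run. Averages were compared as log2 ratios with 1 TPM added, without a test. Named genes are the receptors with library values, those in the authors' lists, those with a log2 ratio of at least 1 in size, the 12 most abundant, and by the same rule partners with library values or the 3 largest ratios; others were named after their values were seen. The receptors and gene lists were chosen with earlier results of these data known. Alternatives were other pseudocounts, filters, scalings, variance models, a replicate block and leaving out each library. Python 3.11.15, scipy 1.17.1 and matplotlib 3.10.9 were used. Some receptors and markers are counted in the totals but not reported here.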

Additional observations from a re-analysis of the deposited data

How the results depend on the processing

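Quantile normalization, median centring and leaving out sham replicate 2 each gave 4 receptors called lower by limma in place of 1, and quantile normalization gave 0 called higher in place of 1. Leaving out 1 library at a time gave 1 receptor called higher each time and 1 to 4 called lower. The cause was not tested. Directions turned for Adgrl2 and Gpr4 after quantile normalization (−0.10 and −0.14), for Adgrl2 without sham replicate 2 (−0.0022), and for Gpr176 without sham replicate 1 (0.013), sham replicate 3 (0.017) or SNI replicate 1 (0.0055). With 1 library left out, Adgrl2 ranged from −0.0022 to 0.10 and Gpr176 from −0.10 to 0.017. None of the turned values was called. Receptors with a log2 ratio of averages of at least 1 in favour of SNI, after adding 1 TPM, numbered 3, beside 2.69% of all genes. There were 11 with a pseudocount of 0.1 (4.59% of all genes) and 12 by average read counts (5.06%). At a 1.5-fold size there were 12 (6.79%). The share of all genes thus rose in the same settings. Without the leukocyte receptors, 1 had a log2 ratio of at least 1 (2.69% of all genes) and 4 reached a 1.5-fold size (6.79%). In favour of sham 0 reached a log2 ratio of 1 in size, beside 0.479% of all genes with 1 TPM added. At a 1.5-fold size 2 did, beside 2.52%. Without the leukocyte receptors (an alternative chosen after seeing the data) 3 of 82 were in the authors' higher list, beside 3.63% of all genes.

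With the replicate number as a block, limma again called 1 receptor higher and 1 lower, and 498 and 447 of all genes in place of 510 and 466; the adjusted p of Col3a1 was then 0.051. The labels do not say that the numbers pair libraries, so they were not taken to do so. Deviations of libraries with the same number correlated at −0.09, −0.06 and 0.19, and not every library correlated best with its own number. Deviations from a mean of 3 libraries are not independent, so these correlations cannot decide on pairing. Receptors with few reads are limited by depth: 16 of 97 had fewer than 10 reads in both averages.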
